A study of Mus musculus with 16 samples.

Results

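The 10 genes described here belong to the interleukin-1 family and the inflammasome. Chosen by symbol, they were followed through single-cell RNA sequencing of CD45+ cells from mouse tumors. They are the cytokines Il1a, Il1b and Il18, the receptor antagonist Il1rn, the receptor chains Il1r1, Il1r2 and Il1rap, the sensor Nlrp3 and the proteases Casp1 and Casp4, and all 10 were found among the 31053 features of the count matrices. The 16 libraries fall into 4 groups of 4: subcutaneous MC38 tumors (a colorectal carcinoma line) and Panc02-SIY tumors (a pancreatic adenocarcinoma line carrying the model antigen SIY), each either untreated (NT) or taken 24 h after 1 dose of 12 Gy (RT). All hosts were C57BL/6J mice, and all cells had been sorted as live and CD45+, so tumor cells and stroma should be scarce. Both tumor models are grown from established lines. The labels list 4 replicates per group while the methods of the study list 3 animals per group, so each library was taken as 1 mouse and the p-values below measure the spread between libraries. If an animal gave more than 1 library, they are too small. The tumor line cannot be told apart from the set of libraries it was processed in.

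Interleukin-1 alpha and beta bind the receptor chain encoded by Il1r1, which then recruits the accessory chain encoded by Il1rap and signals through MyD88 to NF-kB. The antagonist encoded by Il1rn occupies Il1r1 without signaling, and Il1r2 encodes a decoy that binds the cytokines and does not signal. Interleukin-1 beta and interleukin-18 are made as inactive precursors, which caspase-1 cleaves once a sensor such as NLRP3 has assembled an inflammasome. Caspase-11, the product of mouse Casp4, senses intracellular lipopolysaccharide and cleaves gasdermin D. In tumors, neutrophils, monocytes and macrophages are known as the main immune makers of Il1b mRNA. Messenger RNA was measured here, and neither cleavage nor secretion of the proteins was.

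Several members sit side by side in the genome. On mm10 (GRCm38, GENCODE vM21), Il1a (chr2:129299610-129309972) and Il1b (chr2:129364570-129371139) lie on the minus strand of chromosome 2, 54597 bp apart. Casp1 (chr9:5298517-5307265) and Casp4 (chr9:5308828-5336783) lie 1562 bp apart on the plus strand of chromosome 9, and Il1r2 (chr1:40074079-40125231) and Il1r1 (chr1:40225080-40317257) lie 99848 bp apart on the plus strand of chromosome 1. Il1rn is at chr2:24336853-24351494, Il18 at chr9:50554827-50581840, Nlrp3 at chr11:59541568-59566956 and Il1rap at chr16:26581704-26730117. RefSeq start sites (GRCm38.p6) were found for all 10 genes, with 15 windows of 250 bases upstream. Shown 5′ to 3′ on the strand of the gene are the windows of the 2 neighbouring cytokine genes, which differ in how far their levels stood apart between the tumors, and of the sensor Nlrp3 and the protease Casp4, which were called beside them in irradiated Panc02-SIY tumors. Capitals mark matches, on either strand, to the TATA box TATAAA, to the PU.1 core GAGGAA, to the C/EBP half-sites TTNNGNAA or to the NF-kB consensus.
Il1a, chr2:129309973-129310222, minus strand: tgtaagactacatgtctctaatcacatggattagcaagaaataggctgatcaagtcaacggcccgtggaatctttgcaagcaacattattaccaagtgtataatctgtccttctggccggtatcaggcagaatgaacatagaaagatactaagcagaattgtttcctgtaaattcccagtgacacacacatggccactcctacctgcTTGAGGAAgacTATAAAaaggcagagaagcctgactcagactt
Il1b, chr2:129371140-129371389, minus strand: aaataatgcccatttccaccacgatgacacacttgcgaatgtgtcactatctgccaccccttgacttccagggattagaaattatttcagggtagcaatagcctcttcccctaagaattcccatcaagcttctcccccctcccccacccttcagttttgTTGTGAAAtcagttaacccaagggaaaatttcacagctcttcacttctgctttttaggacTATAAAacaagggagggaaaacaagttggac
Nlrp3, chr11:59541319-59541568, plus strand: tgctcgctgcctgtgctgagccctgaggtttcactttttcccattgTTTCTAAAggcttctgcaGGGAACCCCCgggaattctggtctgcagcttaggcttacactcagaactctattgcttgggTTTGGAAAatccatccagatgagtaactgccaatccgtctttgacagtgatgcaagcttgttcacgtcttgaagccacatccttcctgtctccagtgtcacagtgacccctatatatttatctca
Casp4, chr9:5308599-5308848, plus strand: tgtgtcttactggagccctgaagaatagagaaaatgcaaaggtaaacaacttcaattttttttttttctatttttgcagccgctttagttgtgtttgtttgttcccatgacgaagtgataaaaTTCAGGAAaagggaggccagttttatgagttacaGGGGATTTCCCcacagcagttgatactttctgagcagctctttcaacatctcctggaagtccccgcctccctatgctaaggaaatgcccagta
TATAAA began at position -32 of Il1a and at -31 of Il1b, counted from the start site, and 12.4% of all 32851 windows of this length hold these letters. The GAGGAA of Il1a overlaps its TTNNGNAA match, and these motifs occur in 23.3% and 36.8% of all windows. The NF-kB consensus was matched in Nlrp3 at -186 and in Casp4 by overlapping matches that begin at -93 and -92, against 3.9% of all windows. It was not matched in the windows of Il1a and Il1b, or in those of Il1rn, Il1r2 and Il1rap, which are not shown. All of these genes were also called in irradiated Panc02-SIY tumors. Nor was it matched in another Nlrp3 window (chr11:59542436-59542685, plus strand), which holds GAGGAA and is not shown either. A window of Il1r1, a gene not called after radiation, did hold the NF-kB consensus, at -232, and is not shown. Of the 15 member windows, 3 held TATAAA, 10 held TTNNGNAA and 4 held the NF-kB consensus. Windows of 1 gene can overlap and share a match, as those of Casp4 and of Il1rn do, so these windows belong to 3, 6 and 3 genes and are not set against the shares above. The matches are letters only.

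Before the results, 2 features of the libraries have to be stated. First, barcode sequences recurred between libraries of the same tumor. The 9843 barcode entries of the MC38 libraries held 2632 distinct sequences, of which 769 occurred in all 8 libraries, whereas the 18835 entries of the Panc02-SIY libraries held 18136 distinct sequences. Each sequence was kept only in the library of its tumor where it had most UMIs (unique molecular identifiers, 1 per captured mRNA), which left 20768 of 28678 entries. The kept libraries held 1385711 to 8500889 UMIs for MC38 and 5275195 to 43708746 for Panc02-SIY, with a median of 7674 and 5203 UMIs per barcode. MC38 libraries kept 42.8% to 86.4% of their UMIs. The least was kept in MC38 RT replicate 1, with 11.4% of its barcodes. Second, 582 kept barcodes (2.80%) carried at least 2 UMIs of keratin, Epcam or collagen genes (Krt8, Krt18, Epcam, Col1a1, Col3a1). Immune cells should lack the keratins and collagens, but Epcam was highest in cDCs, at 24.0 CPM against 4.14 in the non-immune class. The 582 barcodes took in 18.5% of NT and 16.1% of RT MC38 cDCs, so some may be true cDCs. The fit without these barcodes was added after the class values had been seen. Calls lost without these barcodes, or with the recurring ones left in, are given with the value of that fit. Barcodes were assigned to classes by panels of marker genes, and 3255 stayed unassigned. The MC38 libraries gave 1118 macrophages and 443 monocytes but 15 neutrophils and 58 conventional dendritic cells (cDCs) over all 8, and the Panc02-SIY libraries gave 3219 macrophages, 776 monocytes, 1686 neutrophils, 378 cDCs, 7238 T cells and 1830 NK cells. For each of the monocyte, T cell, NK cell and B cell panels at least 6 of 8 markers were highest in the class they define. For the non-immune panel 4 of 6 were. Since the gate used these same markers, this does not check the classes. Classes taken from clusters were the same for 89.4% of gated barcodes. The match was poorer for monocytes. Of 1219 gated monocytes, 646 lay in the cluster named monocyte, and most of the others lay in clusters named macrophage.

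Il1b was the member with most transcripts, 235997 kept UMIs, against 21584 for Il1rn, 13879 for Il1r2 and 479 for Il1r1. In Panc02-SIY tumors its level, as CPM within a class (UMI counts-per-million), was highest in neutrophils. Over the 8 libraries the lowest neutrophil value was 13156 CPM, the median 14366 and the highest 19837, whereas monocytes had a median of 1916 (735 to 3187), macrophages of 900 (647 to 1682) and cDCs of 438 (180 to 952). No neutrophil library overlapped with any monocyte library, and the monocyte, macrophage and cDC ranges overlapped. T cells, NK cells and B cells had medians of 35.2, 38.7 and 38.9 CPM, below every cDC library. Of Panc02-SIY neutrophils 97.6% carried at least 1 Il1b UMI at a median depth of 2359 UMIs, and 16.3% of T cells did at a median depth of 7031 UMIs. Free RNA from lysed cells can enter any droplet, so the T cell share is given as a background to set the neutrophil share against, and where those T cell UMIs come from was not tested. In MC38 tumors monocytes, with a median of 4764 CPM (4132 to 5285), lay above every macrophage library (median 1998, 1494 to 3434), and the 3 libraries with enough cDCs spread from 729 to 6138. The 15 MC38 neutrophil barcodes held 865 Il1b UMIs, or 20557 CPM (95% exact Poisson interval 19210 to 21974, counting error only), and no test was possible with so few.

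**Figure D1:**
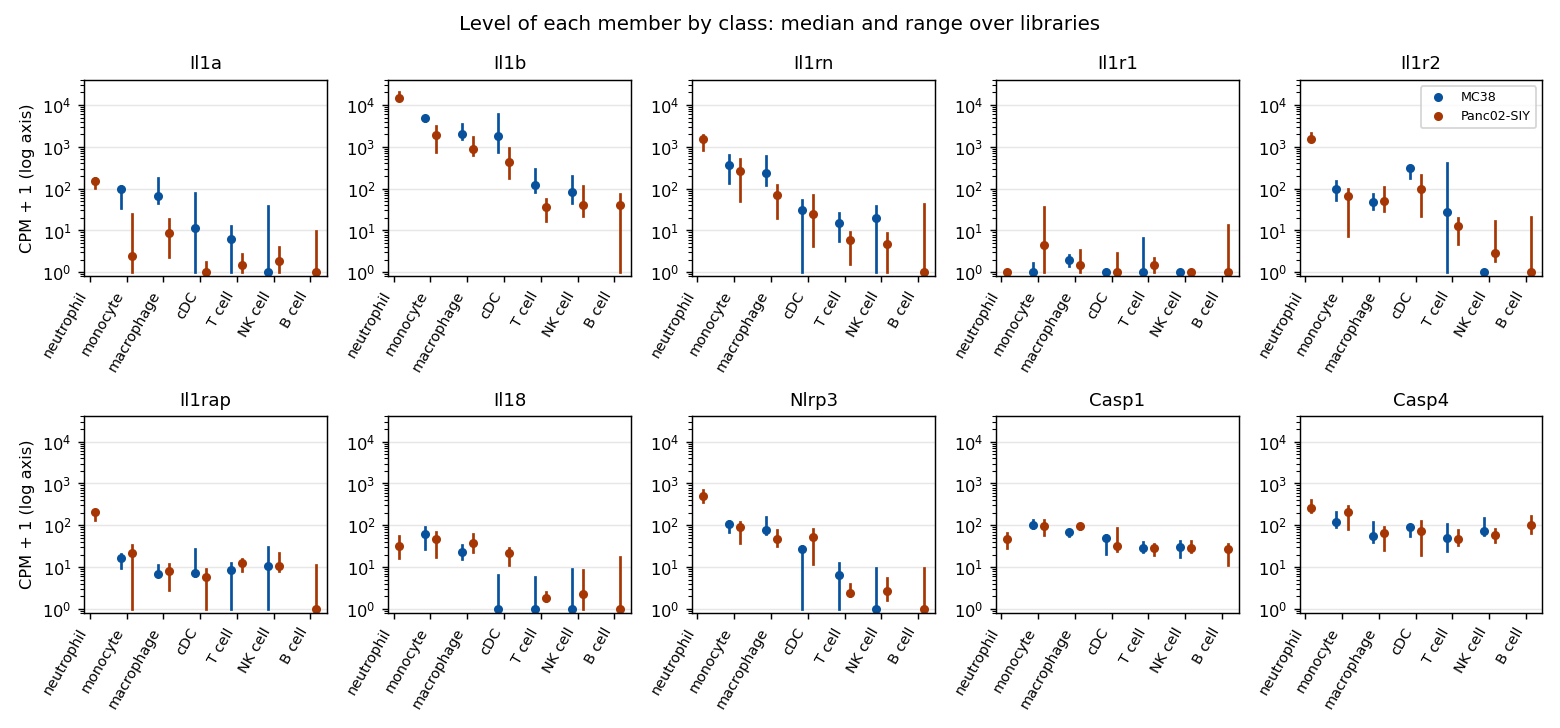
Level of each of the 10 members by class, in CPM + 1 on a log axis. Points are medians and bars the range over the libraries of a tumor with at least 10 barcodes of that class, for classes with at least 3 such libraries, so MC38 neutrophils and B cells are not drawn. Panc02-SIY neutrophils stand above every other class for Il1a, Il1b, Il1rn, Il1r2, Il1rap and Nlrp3, and Casp1 is spread over all classes.

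For another 5 members neutrophils were also the highest class in Panc02-SIY tumors, above every library of the next class, which differed between members. The share of all genes with this pattern was not counted, so nothing particular to the members is read from it. The decoy receptor Il1r2 had a neutrophil median of 1554 CPM (1380 to 2085), and the next class, cDCs, had 97.0 (21.6 to 206). Il1rn had 1529 CPM in neutrophils (833 to 1916) and 261 in monocytes (50.1 to 509). Nlrp3 had 514 CPM in neutrophils (355 to 699) and 90.7 in monocytes (36.3 to 118). By CPM the highest class was thus the same for a cytokine, its antagonist, its decoy and a sensor. CPM is a share of the RNA of a class, and neutrophils had fewer UMIs per barcode than monocytes. Over the 8 libraries Il1rn had 6313 UMIs in neutrophils and 2923 in the smaller monocyte class, and Nlrp3 had 2400 and 818. Per barcode Il1rn was about level between these classes, and Nlrp3 differed less than by CPM. The accessory chain Il1rap had 205 CPM in neutrophils (135 to 224) and 20.3 in monocytes (0 to 32.6). Il1a had 154 CPM in neutrophils (105 to 180) and 7.83 in macrophages (1.33 to 18.3).

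For Il18, Casp1 and Casp4 neutrophils did not stand above every library of the other classes. Il18 had medians of 46.8 CPM in Panc02-SIY monocytes, 36.6 in macrophages, 31.2 in neutrophils and 20.2 in cDCs, with overlapping ranges, and of 1.29 in NK cells, 0.868 in T cells and 0 in B cells. No cDC library (10.5 to 28.4) overlapped with an NK cell library (0 to 7.71). Casp1 was highest in Panc02-SIY macrophages (94.7, 78.9 to 100.1) and monocytes (93.1, 59.0 to 132), whose ranges overlapped, and was also present in lymphocytes, at 28.0 in T cells. Casp4 had 264 in neutrophils (202 to 403) and 207 in monocytes (82.2 to 289), again overlapping, and 47.1 in T cells. With 7238 barcodes the T cells held 27.0% of Casp1 UMIs and 28.9% of Casp4 UMIs in Panc02-SIY tumors.

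Il1r1, the signaling receptor, had the fewest UMIs of the members. It had no UMI in 1686 Panc02-SIY neutrophils, where 3 UMIs would be 0.682 CPM, and none in 1830 NK cells. Of its 479 UMIs, 384 lay in the 582 barcodes with keratin, Epcam or collagen UMIs. Across 88 class-by-library sums its level was most like that of Rhox5 (r = 0.86), Prelp (0.85) and Cav1 (0.84), the latter pair being stromal genes, while that of Il1b was most like Nlrp3 (0.93), Il13ra1 (0.93) and Hlx (0.92), and that of Il1rn most like Msrb1 (0.95). These correlations describe sums that share libraries and depth, and they carry no test.

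The 2 tumors differed in which class held the transcripts. In Panc02-SIY tumors neutrophils held 51.3% of Il1b UMIs, macrophages 22.9% and monocytes 15.4%. In MC38 tumors macrophages held 48.5%, monocytes 28.7% and neutrophils 0.851%, with 19.4% in unassigned barcodes. The contrast was wider for Il1a, of which neutrophils held 62.1% in Panc02-SIY and macrophages 65.3% in MC38. For Il1r2 the shares were 66.4% in Panc02-SIY neutrophils and 42.4% in MC38 macrophages. Il18 was held mainly by macrophages in both, 54.0% in MC38 and 48.4% in Panc02-SIY. Class sizes differed in the same direction, as neutrophils were 0.381% to 0.797% of barcodes in untreated MC38 libraries and 5.49% to 10.1% in untreated Panc02-SIY libraries.

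**Figure D2:**
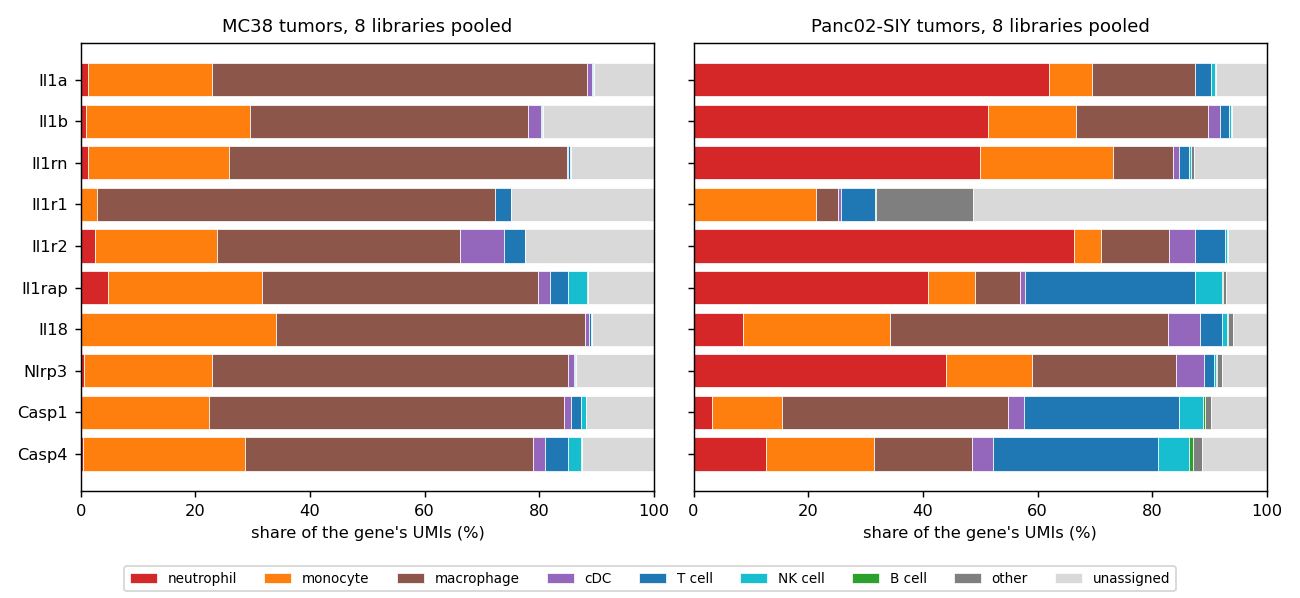
Share of the UMIs of each member, in percent, found in each class, with the 8 libraries of a tumor pooled. Other stands for plasmacytoid dendritic cells, mast cells and barcodes gated as non-immune. Neutrophils hold 51.3% of Il1b and 62.1% of Il1a UMIs in Panc02-SIY tumors and 0.851% and 1.35% in MC38 tumors, and most Il1r1 UMIs of Panc02-SIY tumors lie in unassigned or non-immune barcodes or in monocytes.

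The first comparison asked how the members differ after radiation within each tumor, over all CD45+ barcodes. In MC38 tumors Il1b was 1924, 2459, 2596 and 2200 CPM in the NT libraries and 3662, 3802, 3466 and 3492 in the RT libraries, on library sizes scaled by TMM, as for the values beside each fit that follows unless unscaled totals are named. Every RT library lay above every NT library, and edgeR gave a log2 fold change of 0.65 ± 0.12 (SE, adjusted p = 0.00384). Casp4 rose by 0.54 ± 0.14 (adjusted p = 0.0208), from 57.6 to 83.2 CPM in the NT libraries to 75.9 to 118 in the RT libraries, and Il1rn by 1.00 ± 0.33 (adjusted p = 0.0722), from 140 to 259 CPM to 291 to 505. These 3 of the 10 members were called higher. A call required both a Benjamini-Hochberg value under 0.1 and a change of more than 1.3-fold, and it was made for 11.7% of 12447 genes, with 7.24% higher. Il1a had 52.9 to 67.7 CPM before and 69.3 to 125 after, 0.54 ± 0.23, which did not pass the test (adjusted p = 0.162), and Casp1 stood at 66.6 to 83.8 CPM before and 75.3 to 80.7 after. With the recurring barcodes left in, Il1b kept its call while Il1rn (0.70, adjusted p = 0.223) and Casp4 (0.35, below the fold limit) lost theirs, and Il1rn kept its call in 8 of the 16 fits that each left out 1 library. It was lost without MC38 NT replicate 1, 3 or 4, MC38 RT replicate 1, 2 or 3, or Panc02-SIY RT replicate 2 or 3, which enters through the shared estimate of the spread (0.84 to 1.05). Of 13 alternative fits that kept all libraries, 8 kept the Il1rn call.

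In Panc02-SIY tumors 7 of the 10 members were called higher after radiation, where 14.7% of genes were called and 7.69% were higher. Il1b was 732, 637, 469 and 643 CPM in the NT libraries and 1424, 1226, 1431 and 1227 in the RT libraries, without overlap, a log2 fold change of 1.10 ± 0.12 (edgeR, adjusted p = 9.3e-05). Il1a was 4.86, 6.06, 3.84 and 4.06 before and 20.5, 11.6, 14.3 and 8.29 after (1.5 ± 0.26, adjusted p = 0.00195). Il1rn was 71.6, 73.5, 37.7 and 24.7 before and 223, 151, 170 and 113 after (1.67 ± 0.33, adjusted p = 0.00498). Both agonists and the antagonist rose in the sum of CD45+ cells, each without overlap between the groups. Nlrp3 was 34.7, 24.3, 18.3 and 28.0 CPM before and 61.4, 44.0, 58.9 and 48.1 after (1.02 ± 0.18). Casp4 was 52.4, 55.3, 57.1 and 48.0 before and 101, 86.0, 88.3 and 80.9 after (0.74 ± 0.13), also without overlap. The receptor genes overlapped between the groups: the decoy Il1r2 was 85.9, 63.6, 53.8 and 38.4 before and 126, 115, 150.4 and 65.8 after (0.93 ± 0.25), and Il1rap 14.0, 14.2, 15.3 and 8.12 before and 27.1, 20.3, 20.6 and 14.0 after (0.67 ± 0.22). Il18 did not pass by edgeR (0.52 ± 0.20, adjusted p = 0.102) and was called by DESeq2 (0.57, adjusted p = 0.0479), and Casp1 moved by 0.07 ± 0.12, a difference smaller than its SE. Il1rap lost its call without Panc02-SIY NT replicate 4 (0.52) and without Panc02-SIY RT replicate 1 (0.56). It kept the call in 12 of 13 alternative fits that kept all libraries.

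These sums mix levels within cells with the numbers of cells, and in such a sum fewer cells of a class and less RNA per cell cannot be told apart. Monocytes were 1.53% to 3.62% of Panc02-SIY barcodes before and 5.44% to 7.74% after radiation (exact permutation test, two-sided, p = 0.0286, the smallest that 4 against 4 allows, adjusted p = 0.0857 over 6 shares). Neutrophils were 5.49% to 10.1% before and 7.68% to 14.9% after, and this difference did not pass (exact permutation p = 0.0857, adjusted p = 0.129). In MC38 tumors the macrophage share went from 40.8% to 55.8% down to 31.3% to 39.6% (exact permutation p = 0.0286, adjusted p = 0.0857). The MC38 monocyte share was 9.16% to 17.1% before and 14.97% to 23.4% after, which did not pass (exact permutation p = 0.0857, adjusted p = 0.129). The monocyte share of Il1b UMIs in Panc02-SIY tumors was 6.20% in pooled NT libraries and 21.1% in pooled RT libraries, and the neutrophil share 56.7% and 48.0%.

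**Figure D3:**
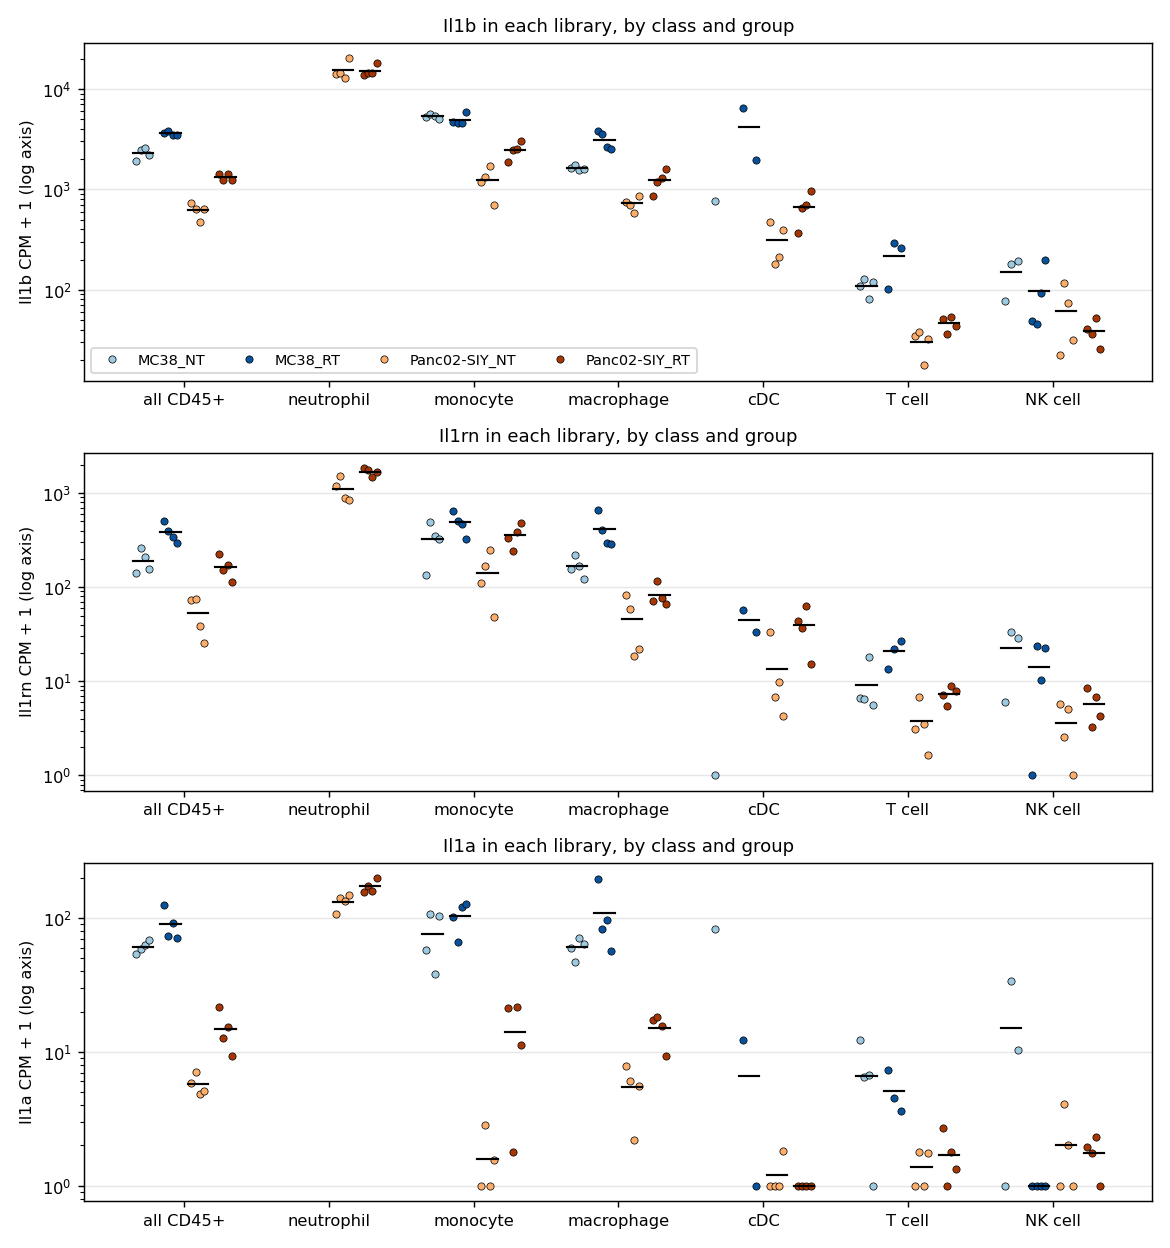
Il1b, Il1rn and Il1a in each library by class and group, in CPM + 1 on a log axis, with points for libraries that have at least 10 barcodes of the class and lines for the group mean of CPM + 1. In neutrophils the NT and RT libraries of Panc02-SIY tumors overlap for Il1b, and in macrophages of both tumors Il1b is higher after radiation.

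Within neutrophils Il1b lay at the same level before and after radiation to within its error. The Panc02-SIY libraries had 14208, 14295, 12889 and 20299 CPM before and 13747, 14267, 14457 and 18104 after, a log2 fold change of -0.03 ± 0.15 (edgeR, adjusted p = 0.98). The groups overlapped fully. No member was called there, with 3 of 5053 genes called in all (0.0594%), 3 members at an unadjusted p below 0.05 and none by DESeq2. Those 3 members were Il1rn, 852 to 1528 CPM before and 1485 to 1838 after (0.59 ± 0.17, adjusted p = 0.365), Casp4 (0.42 ± 0.18) and Il1a (0.36 ± 0.17). In simulated counts of the same depth 89 genes of this class were changed by 2-fold and 88 by 4-fold, and 74.2% of the former were recovered. The adjustment asks for a smaller p where only 3 genes are called, as in the real contrast. Recovery there can thus be lower, and smaller changes of the members are not excluded.

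Within macrophages Il1b was higher after radiation in both tumors. MC38 macrophages had 1647, 1756, 1551 and 1585 CPM before and 3774, 3547, 2624 and 2510 after, without overlap (0.93 ± 0.17, edgeR adjusted p = 0.0014). Panc02-SIY macrophages had 750, 696, 585 and 863 before and 855, 1185, 1285 and 1605 after (0.78 ± 0.17, adjusted p = 0.0172), where the lowest RT library lay just below the highest NT library. Both calls were kept in every alternative fit run, including without the keratin and collagen barcodes and with each library left out. The neutrophil marker S100a8 was 53.3 ± 55.0 CPM (SD, n = 4, unscaled totals) in NT and 60.7 ± 34.7 in RT Panc02-SIY macrophages, and 2.2 ± 1.5 and 2.9 ± 2.4 in MC38 macrophages, against 18278 ± 3166 in untreated Panc02-SIY neutrophils. Macrophages and monocytes also shared clusters, as in the cluster with 260 gated macrophages and 140 gated monocytes. Median Il1b was higher in monocytes than in macrophages in both tumors. The mean monocyte share was higher after radiation in both, though the MC38 difference did not pass. How far monocyte-like cells in the macrophage gate enter the Il1b difference was not tested. Il1rn rose in MC38 macrophages from 157, 219, 167 and 122 CPM to 667, 403, 292 and 285 (1.29 ± 0.39, adjusted p = 0.0549), again without overlap. That call was lost with recurring barcodes left in (0.77, adjusted p = 0.219) and in 5 of 16 fits that left out a library, namely MC38 NT replicate 1, 3 or 4 or MC38 RT replicate 1 or 2 (0.98 to 1.29). Of 13 alternative fits that kept all libraries, 11 kept it. In Panc02-SIY macrophages Il1rn had 82.2, 57.9, 17.4 and 20.9 CPM before and 70.1, 117, 75.4 and 66.0 after (1.2 ± 0.47, adjusted p = 0.212). In all 2 members were called higher in MC38 macrophages, where 13.8% of genes were called and 7.23% higher, and 1 in Panc02-SIY macrophages, where 5.14% were called and 2.35% higher. DESeq2 also called Il1a in both tumors (0.82 and 1.70) and Casp4 in MC38 (0.62). The protease Casp1 stood at 66.6 to 76.5 CPM before and 60.8 to 74.4 after in MC38 and at 88.9 to 95.9 and 72.0 to 90.1 in Panc02-SIY macrophages (-0.09 ± 0.11 and -0.18 ± 0.11).

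Within monocytes the calls changed with a small set of barcodes. In MC38 monocytes no member was called and none had an unadjusted p below 0.05 (0.0406% of genes called, DESeq2 none). Il1b was 5271, 5564, 5431 and 5049 CPM before and 4644, 4555, 4587 and 5889 after (-0.12 ± 0.19), with overlapping groups. In Panc02-SIY monocytes 5 members were called higher in the fit on all barcodes, where 16.5% of genes were called and 7.35% higher. Il1b was 1183, 1323, 1702 and 694 before and 1868, 2483, 2507 and 3038 after (1.00 ± 0.20, edgeR adjusted p = 0.025), without overlap, and the others were Il1rn (1.34 ± 0.42), Il1rap (1.05 ± 0.37), Nlrp3 (0.95 ± 0.25) and Il1a (4.02 ± 1.03). Il1a had 2 UMIs in the 190 NT monocytes and 81 in the 586 RT monocytes, so its fitted change depends on the prior count. Leaving out 1 library ended the call of Il1a without Panc02-SIY NT replicate 4 (3.79), of Nlrp3 without NT replicate 2 or 4 (0.71 to 0.79) and of Il1rn without NT replicate 2 or 4 or RT replicate 1, 3 or 4 (0.97 to 1.42). Il1rap lost it without these NT libraries, any of the RT libraries, MC38 NT replicate 3 or MC38 RT replicate 3 or 4 (0.90 to 1.10).

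Of those 190 untreated Panc02-SIY monocytes 34 (17.9%) carried keratin, Epcam or collagen UMIs, and they held 74 of the 78 Il1r1 UMIs of the class, whereas 11 of 586 irradiated ones (1.88%) did. Without these barcodes Il1b was 1593, 2884, 1802 and 2703 CPM before and 2030, 2790, 2899 and 3560 after, on unscaled totals, and the groups overlapped. The log2 fold changes became 0.27 for Il1b (edgeR adjusted p = 0.735), 0.86 for Il1rn (0.540), 0.43 for Il1rap (0.767), 0.19 for Nlrp3 (0.838) and 3.95 for Il1a (0.516), so that none of the 5 was called. The fitted change of Il1a was about as large as with all monocytes and lost its call through its p, while those of Il1b and Nlrp3 were under a log2 value of 0.3. A stricter gate gave 0.16 for Il1b and -0.02 for Nlrp3, and classes taken from clusters gave 0.19 and 0.20. What these barcodes are was not tested.

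**Figure D4:**
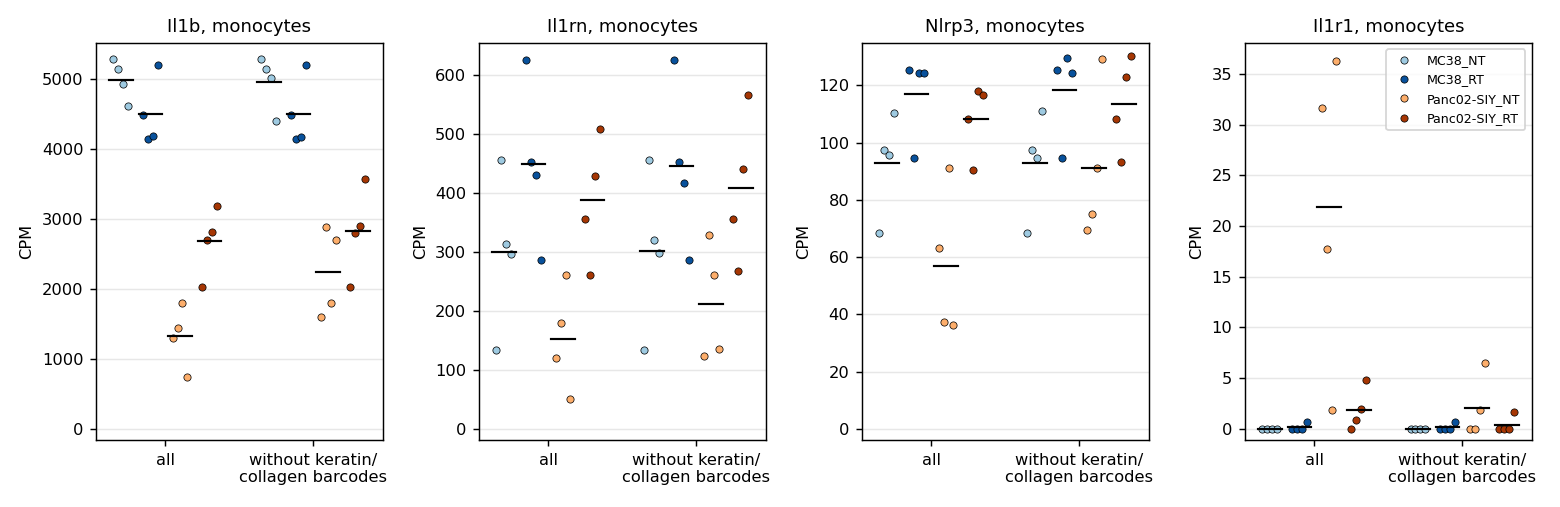
Il1b, Il1rn, Nlrp3 and Il1r1 in monocytes of each library, in CPM on unscaled totals, with all monocytes and without the barcodes that carry keratin, Epcam or collagen UMIs. Points are libraries and lines group means. Once those barcodes are left out, untreated Panc02-SIY replicates 1, 2 and 4 move up for Il1b, Il1rn and Nlrp3 and down for Il1r1, and replicate 3 stays in place. Il1b and Il1rn overlap with the irradiated libraries then but not before, and Nlrp3 and Il1r1 overlap both ways.

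In the other classes few members were called. In Panc02-SIY cDCs Casp4 was 51.0, 19.1, 54.7 and 33.5 CPM before and 118, 98.0, 82.7 and 84.1 after (1.29 ± 0.30, edgeR adjusted p = 0.0911), without overlap, where 0.99% of genes were called and 0.869% higher. The call was lost in 6 of 16 fits that left out 1 library, namely Panc02-SIY NT replicate 2 or 4 or any of the RT libraries (1.06 to 1.35). It was kept in 11 of 13 alternative fits that kept all libraries. Il1b, Il1rn, Il1r2 and Il18 had unadjusted p below 0.05 in this class, and DESeq2 called Il1r2 beside Casp4 (1.32, DESeq2 adjusted p = 0.0804, against 1.35 ± 0.36, adjusted p = 0.148, by edgeR). T cells had no member called by edgeR, where 0.461% of genes were in MC38 and 7.15% in Panc02-SIY tumors, and NK cells had none, where 0.152% and 0.203% were. In B cells (0.985%) no member had counts enough to test. In Panc02-SIY T cells Il1b, Il1rn and Casp4 had unadjusted p below 0.05, as did Il1b in MC38 T cells and Casp1 in Panc02-SIY NK cells. DESeq2 called Il1b in MC38 T cells and no other member in these 2 classes.

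**Figure D5:**
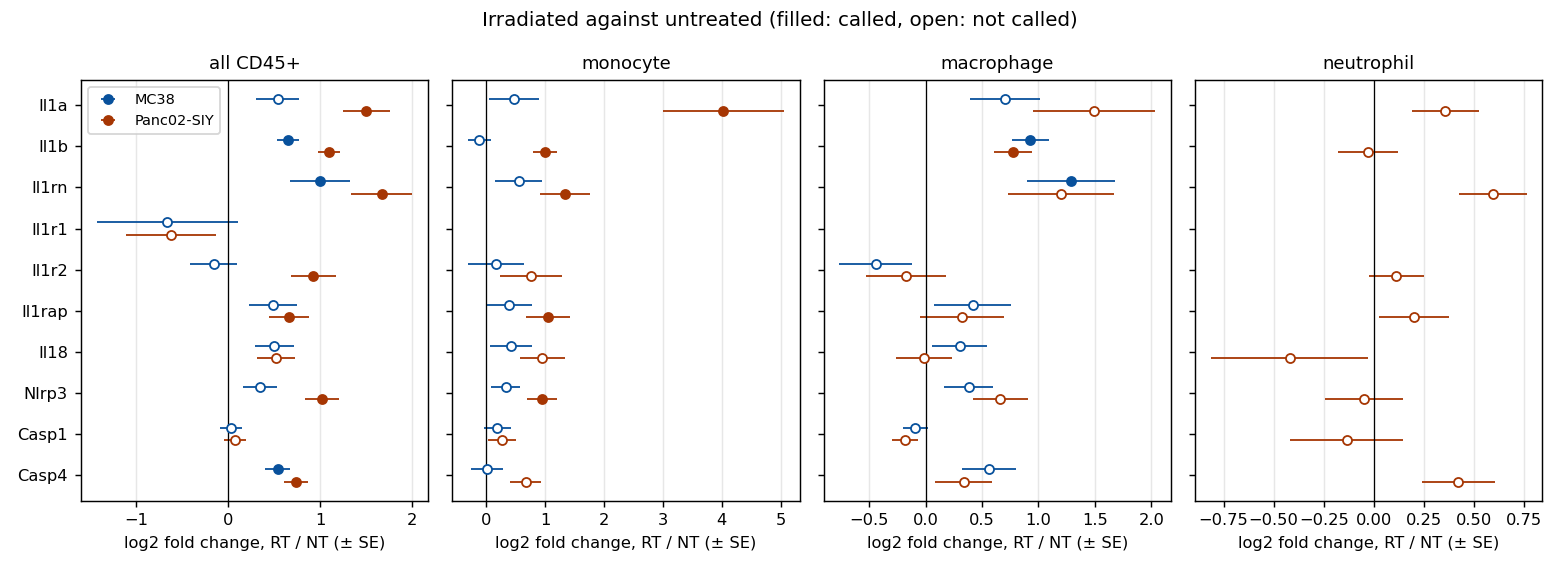
Log2 fold change of each member, RT over NT, with its SE from edgeR, in all CD45+ barcodes, monocytes, macrophages and neutrophils, for MC38 and Panc02-SIY. Filled points were called and open points were not. Il1b is called in macrophages of both tumors and stands at -0.03 in neutrophils, and the filled points of Panc02-SIY monocytes are not called without the keratin and collagen barcodes.

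Whether radiation acted differently in the 2 tumors was tested by the interaction of tumor and treatment. No member was called by edgeR in any class. Of all genes 0.345% were called over all CD45+ barcodes, 0.0102% in T cells and 0% in monocytes, macrophages and NK cells. Over all CD45+ barcodes 4 members had an unadjusted p below 0.05, Il1a, Il1b, Il1r2 and Nlrp3, each with the larger fitted change in Panc02-SIY tumors, as had Il1a and Il1b in monocytes. Il1r2 in T cells also had one (-3.23 ± 1.37, edgeR adjusted p = 0.892), with the larger fitted change in MC38, from 0 to 412 CPM before to 12.5 to 38.7 after. The highest of those MC38 NT libraries, replicate 3, drew all its T cell Il1r2 UMIs from 1 barcode. For Il1r2 the difference of log2 fold changes was -1.08 ± 0.36 (edgeR adjusted p = 0.243), with 84.1 to 108 CPM before and 59.8 to 100.2 after in MC38 and 38.4 to 85.9 before and 65.8 to 150.4 after in Panc02-SIY. For Il1b in macrophages the difference was 0.15 ± 0.23. DESeq2 called Il1r2 in all CD45+ barcodes (261 of 12447 genes) and Il1b in monocytes (33 of 7391). The fit with recurring barcodes called Il1a, Il1b and Nlrp3 in all CD45+ barcodes (334 of 12615 genes) and Il1b in monocytes (68 of 8058). In the latter fit a sequence counts in every library that holds it, so MC38 libraries may share cells and its p-values can be too small. Both monocyte calls were made with the keratin and collagen barcodes left in.

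The second comparison set the tumors side by side at the same treatment, where tumor and library set cannot be told apart. Sums over all CD45+ barcodes also mix classes of different size. Macrophages were 40.8% to 55.8% of untreated MC38 barcodes and 9.70% to 29.3% of untreated Panc02-SIY barcodes. Over all CD45+ barcodes of untreated tumors, 7 members were called higher in MC38 and 2 lower, where 61.1% of genes were called, 29.1% higher and 32% lower. The median log2 difference was 1.21 over the members and -0.04 over all genes. Il1a had the largest difference among them, 52.9 to 67.7 CPM in MC38 and 3.84 to 6.06 in Panc02-SIY (log2 3.69 ± 0.26), followed by Il1b and Il1rn (both 1.89), Nlrp3 (1.56), Il18 (1.49), Casp1 (0.93) and Il1r2 (0.62, a call lost without MC38 NT replicate 3 at 0.53 or Panc02-SIY NT replicate 4 at 0.45, and without the keratin and collagen barcodes at 0.43, edgeR adjusted p = 0.115). Il1rap was lower (-0.63 ± 0.24), and Il1r1 was lower (-1.21), a call lost without Panc02-SIY NT replicate 4 or MC38 NT replicate 1, 2 or 4 (-1.13 to -0.46). In untreated Panc02-SIY libraries the keratin and collagen barcodes held 171 of 178 Il1r1 UMIs of unassigned barcodes, 74 of 78 of monocytes and 40 of 40 of non-immune ones, and without them Il1r1 had too few counts for a fit. After radiation 6 were higher and 1 lower, where 58.5% of genes were called, 29.9% higher and 28.6% lower.

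The difference in Il1a and Il1b was also present within the gated classes. Macrophages fell into several clusters, the largest parts being 1799, 1186 and 644 barcodes over both tumors. Whether the tumors mixed these alike was not tested. In untreated macrophages Il1a was 58.4, 46.0, 69.8 and 62.9 CPM in MC38 and 6.85, 5.06, 1.2 and 4.55 in Panc02-SIY (3.80 ± 0.44, edgeR adjusted p = 9.59e-06), and after radiation it was 55.6 to 196 and 8.3 to 17.3 (3.02 ± 0.40). No MC38 library overlapped with a Panc02-SIY library. Il1b differed by 1.18 ± 0.17 before and 1.33 ± 0.17 after, Il1rn by 2.21 ± 0.46 and 2.30 ± 0.42, and Nlrp3 by 1.01 ± 0.23 and 0.73 ± 0.23, while Il18 was lower in untreated MC38 macrophages (-0.54 ± 0.23), a call lost without MC38 NT replicate 3 or 4 or Panc02-SIY NT replicate 2 or 3 (-0.53 to -0.48). The Il18 call was kept in 10 of 13 alternative fits that kept all libraries. Of all genes 47.3% (24.2% higher, 23% lower) and 48.6% (24.7% and 23.9%) were called in these contrasts, against 5 and 4 members, and Panc02-SIY macrophages had a median of 2648 UMIs per barcode against 20583 in MC38. Casp1, higher in MC38 over all CD45+ barcodes, lay lower in MC38 macrophages and was not called there. Untreated macrophages had 66.6 to 76.5 CPM of Casp1 in MC38 and 88.9 to 95.9 in Panc02-SIY, without overlap. After radiation they had 60.8 to 74.4 and 72.0 to 90.1, with overlap, and the unadjusted edgeR p was below 0.05 both times. A call also required a change of more than 1.3-fold. Lyz2, another myeloid gene, was 7270 ± 561 CPM (SD, n = 4, unscaled totals) in untreated MC38 macrophages and 1172 ± 1388 in Panc02-SIY ones, and C1qa was 4784 ± 352 and 4354 ± 371.

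In monocytes Il1a was 37.1 to 106 CPM in untreated MC38 and 0 to 1.81 in Panc02-SIY libraries, and 65.4 to 126 and 0.787 to 20.7 after radiation (3.04 ± 0.47, edgeR adjusted p = 0.000293). Il1b differed by 2.10 ± 0.20 before and 0.99 ± 0.20 after, and the lowest values over the alternative fits that kept all libraries were 1.26 and 0.74. In untreated Panc02-SIY monocytes its mean on unscaled totals was 1319 CPM with the keratin and collagen barcodes and 2245 without. Untreated MC38 monocytes had 4987 and 4956. After radiation Panc02-SIY had 2681 and 2820, and MC38 had 4496 and 4494. The size of the untreated difference thus depends on these barcodes. In these contrasts 6 members were called before and 3 after, where 35.8% (17.6% higher, 18.2% lower) and 29.8% (15.7% and 14.1%) of genes were. Both cytokines kept their calls without the keratin and collagen barcodes, whereas Il1rn (0.67), Il1r2 (0.71), Il18 (0.31) and Nlrp3 (0.14) lost theirs in untreated monocytes. Leaving out 1 library also ended the calls there of Il18 (MC38 NT replicate 2 or 3, Panc02-SIY NT replicate 2 or 4, 0.69 to 0.93), Il1r2 (MC38 NT replicate 3, Panc02-SIY NT replicate 4, 0.91 to 1.11) and Il1rn (MC38 NT replicate 2, Panc02-SIY NT replicate 1 or 4, 0.81 to 1.08). Casp4 was lower in irradiated MC38 monocytes (-0.63 ± 0.26, adjusted p = 0.0935), and that call was lost in 9 of 16 fits that left out a library, namely MC38 NT replicate 3 or 4, MC38 RT replicate 2, 3 or 4 or any of the Panc02-SIY RT libraries (-0.73 to -0.53). Of 12 alternative fits that kept all libraries, 9 kept it.

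In T cells 2 members were called higher in MC38 between untreated tumors, where 12.9% of genes were called, 6.72% higher and 6.21% lower. Il1b was 80.0 to 127 CPM in MC38 and 16.7 to 36.5 in Panc02-SIY (1.88 ± 0.34), beside the macrophage gene C1qa at 134 ± 59.8 and 54.0 ± 29.7 CPM and Lyz2 at 252 ± 87.8 and 15.7 ± 6.05 (SD, n = 4, unscaled totals) in the same T cells. The part of free RNA in that difference was not tested. Il1r2 was 107, 0, 412 and 13.6 CPM in MC38 and 3.92 to 12.9 in Panc02-SIY, and all 72 of its UMIs in MC38 NT replicate 3 came from 1 barcode of 29, without which library the call was lost (2.30). After radiation Il1b alone was called in T cells (2.35 ± 0.29), where 13.8% of genes were, 7.26% higher and 6.53% lower. NK cells had no member called in either contrast (9.97% and 14.2% of genes), with Il1rn before and Il1b and Il1rn after radiation at unadjusted p below 0.05, and DESeq2 called Il1rn before and Il1b after.

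Il1r2 was also read in T cells with and without a Foxp3 UMI. In Panc02-SIY tumors the 272 T cells with a Foxp3 UMI, the marker of regulatory T cells, had 66.6 CPM of Il1r2 (54.9 to 80.2, 95% exact Poisson interval, counting error only), and the 6966 without had 7.49. Over the libraries Il1r2 ran from 0 to 98.3 CPM in the former and from 3.69 to 17.1 in the latter. Casp4 was 123 CPM in the former and 43.4 in the latter, Il1rn 14.3 and 3.45 and Il1b 54.1 and 33.7, while Casp1 was 25.0 and 28.2. The difference was thus not particular to Il1r2. In MC38 tumors 34 T cells had a Foxp3 UMI, with 79.0 CPM of Il1r2 against 71.7 in the others, where 1 barcode held 72 of 100 UMIs. These are pooled values over libraries on unscaled totals and carry no test. The T cell sets, and the cDC sets that follow, were chosen after the class values had been seen. Among Panc02-SIY cDCs, the 259 barcodes nearer to the Xcr1 panel had 108 CPM of Il1r2 and 63.4 of Nlrp3, and the 101 nearer to the Ccr7 panel had 30.1 and 2.91, while Il1b was 560 and 543. The ranges over libraries overlapped for Il1r2 (20.2 to 254 and 0 to 80.2), and the former set also held Cd209a, a gene of type 2 dendritic cells, at 275 CPM, so it is a mixed set.

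Il1rn was counted per 100 Il1b UMIs in each library to set the antagonist beside its agonist. In Panc02-SIY neutrophils the value was 7.54 ± 2.73 (SD, n = 4) before and 11.3 ± 1.90 after radiation, with the highest NT library (10.7) above the lowest RT library (9.19). MC38 macrophages had 10.1 ± 2.02 before and 12.9 ± 3.20 after, and Panc02-SIY macrophages 6.17 ± 4.16 before and 7.0 ± 2.52 after. MC38 monocytes went from 6.06 ± 2.63 to 10.2 ± 3.52, and Panc02-SIY monocytes from 10.7 ± 3.39 to 14.6 ± 3.42. The mean was higher after radiation in each of these pairs, and the groups overlapped in each. The ratio carries no test, so neither a shift nor its absence is read from it.

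Around the members, 43 further genes of the pathway were read from the same fits. Over all CD45+ barcodes 39 were tested, and 6 were called higher in irradiated MC38 tumors and 14 in irradiated Panc02-SIY tumors, with none lower, against the shares of 11.7% and 14.7% given above. Their median log2 fold change was 0.21 and 0.38, beside 0.04 and -0.03 over all genes. Mefv, which encodes the sensor pyrin, rose by 0.90 ± 0.22 in MC38 and 1.5 ± 0.21 in Panc02-SIY. Gsdmd, whose product forms the pore of pyroptosis, rose by 0.42 ± 0.09 and 0.50 ± 0.09, and Nfkbiz, an NF-kB cofactor, by 0.56 ± 0.13 and 0.63 ± 0.13. Within MC38 macrophages 5 of 35 were called, all higher, where 13.8% of genes were called and 7.23% higher, with Il18bp, the soluble inhibitor of interleukin-18, at 1.24 ± 0.30. Within Panc02-SIY macrophages 3 of 35 were (Nfkbiz, Naip5 and Nek7), where 5.14% were called and 2.35% higher. Both counts are small, and nothing particular to the pathway is read from them. Within Panc02-SIY monocytes 9 of 27 were called, where 16.5% of genes were, in the class that holds the keratin and collagen barcodes.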

How the data were processed

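Live CD45+ cells of MC38 and Panc02-SIY tumors were sequenced as 16 libraries (10x 3' v3.0). The authors deposited 1 matrix of raw UMI counts per library, made with Cell Ranger 3.1.0 on mm10 after bcl2fastq 2.20.0, per the labels and the submitters' processing notes. From these counts, barcode sequences recurring within a tumor were kept only in their deepest library, and barcodes were assigned to classes by the mean of their top 4 scaled markers (at least 0.4, lead 0.1), a scoring rule set after the matrices were seen. No doublet caller was run, and a fit without the 5% of barcodes with most UMIs stands in for one. Counts were summed per class and library (10 or more barcodes). Sums of all 4 groups were fitted with edgeR 4.0.16 (TMM, quasi-likelihood, R 4.3.3), adjusting p over all genes tested. A call needed an adjusted p below 0.1 and a fold above 1.3. Group shares were compared by exact permutation. CPM in class orders, subsets and marker checks used unscaled totals, all other CPM used TMM-scaled ones. Named look-alike genes are the 3 with the highest correlation of log2(CPM + 10). The members and gene lists were chosen with earlier results of these data known. Tests were tried on simulated data, which recovered 85.9% of 2-fold changes in macrophages (9788 genes, MC38 RT against NT) and 74.2% in Panc02-SIY neutrophils (4851 genes). The neutrophil simulation changed more genes than the real contrast called, so recovery in the real data can be lower. Alternatives comprised DESeq2 1.42.0, other scalings, filters, gates and left-out libraries. Replicate numbers were not used to pair the samples. Over all CD45+ barcodes the correlations of same-numbered libraries were -0.03 to 0.17 in MC38. In Panc02-SIY they were 0.57, -0.18, 0.32 and 0.82 for replicates 1, 2, 3 and 4. Whether same-numbered Panc02-SIY libraries share a source or a batch was not tested. Python 3.11.15 with scanpy 1.11.5 was used for classes.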

Additional observations from a re-analysis of the deposited data

Results flagged for a closer look

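Of 164 groups of 4 libraries tested for a library far from the other 3, 8 held one, where about 1 in 20 is flagged by chance. In neutrophils of Panc02-SIY RT tumors, replicate 4 was high for Il1b, 18104 CPM where the others had 13747 to 14457, and for Casp4, 441 CPM where the others had 257 to 281. For Il1b the Panc02-SIY NT replicate 4 was also the highest of its group, 20299 CPM against 12889 to 14295, and was not flagged. Replicate 4 of the Panc02-SIY RT group was also high for Casp4 in B cells, 162 CPM against 89.9 to 97.3, and low for Il1r2 in T cells, 9.98 CPM against 17.4 to 18.6. Among monocytes, Il1b was 5889 CPM in MC38 RT replicate 4 where the others had 4555 to 4644, and Il1rap was 29.97 CPM in Panc02-SIY RT replicate 1 where the others had 18.9 to 20.2. Among macrophages, Nlrp3 was 174 CPM in MC38 RT replicate 1 where the others had 73.0 to 85.1, and Casp4 was 39.8 CPM in MC38 NT replicate 3 where the others had 52.4 to 54.3. All values are on TMM-scaled totals.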

How the results depend on the processing

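The number of member and class pairs called was 5 for MC38 RT against NT, which became 3 at an adjusted p below 0.05, 2 with all barcodes and 8 by DESeq2, and ranged from 3 to 7 without 1 library. For Panc02-SIY RT against NT it was 14, which became 23 with all barcodes and 9 without the 5% of barcodes with most UMIs, and ranged from 9 (without Panc02-SIY NT replicate 4) to 19. Between untreated tumors it was 22 (17 to 24 without 1 library) and between irradiated tumors 15 (14 to 19). For the interaction it was 0, with 4 with all barcodes, 2 by DESeq2 and 0 to 3 without 1 library, 3 of them in monocytes without Panc02-SIY NT replicate 3. The fit without that library called 1166 of 7898 genes in monocytes, where the main fit called 0 of 7391. Replicate 3 was the untreated Panc02-SIY library whose monocyte levels stayed in place when the keratin and collagen barcodes were left out. The share of all genes called also moves with the setting, so nothing particular to the members is read from these counts of pairs. For MC38 RT against NT, DESeq2 called 1564 genes over all CD45+ barcodes, 1146 in macrophages and 142 in T cells. The main fit called 1455, 1381 and 45. Panc02-SIY libraries had kept at least 99.0% of their UMIs in the main fit, and why 14 pairs became 23 was not tested. Nlrp3 in monocytes turned to a log2 fold change of -0.0162 (Panc02-SIY RT against NT) and -0.00694 (untreated MC38 against Panc02-SIY) under the stricter gate, and the cause was not tested. Of 1610 refitted log2 fold changes for the 56 calls, 1479 kept direction and call, 129 lost the call and 2 reversed. The fit with the replicate number as a block kept 55 of 56 calls. The lost call was Casp4 in irradiated monocytes of MC38 against Panc02-SIY (-0.65, edgeR adjusted p = 0.108), and the labels name no link between same-numbered samples. RLE scaling and DESeq2 kept all 56. At the depth of these sums the simulation of monocytes recovered 53.6% of 2-fold changes between irradiated tumors over 7153 genes, so changes of that size can be missed. MC38 neutrophils and cDCs had too few barcodes for a test.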
